A study of Mus musculus with 6 samples.

Results

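The miR-17-92 and miR-106b-25 clusters are a pair of related groups of microRNAs (miRNAs), each cut from 1 primary transcript. Their members were taken by name: 10 miRNA labels, of which 7 come from the host gene Mir17hg (mmu-miR-17-5p, mmu-miR-17-3p, mmu-miR-18a-5p, mmu-miR-19a-3p, mmu-miR-19b-3p, mmu-miR-20a-5p and mmu-miR-92a-3p) and 3 from the host gene Mcm7 (mmu-miR-25-3p, mmu-miR-93-5p and mmu-miR-106b-5p; the prefix for mouse is left out below). All 10 had reads, of the 1101 miRNA labels in the data, and they held 774 of the 143934 read sequences. RISC-bound small RNAs (R-sRNAs) were measured in 6 libraries of cortex and hippocampus combined, 3 from mice of 2 months (2M) and 3 from mice of 18 months (18M). The mice of both ages were male, of the BL6 strain that the study's methods name as C57BL/6J, and no treatment or transgene is named for them. In Ago-RP-Seq, a GW182 peptide pulls down the Argonaute proteins of the RNA-induced silencing complex (RISC), and the RNA that comes with them is sequenced. Values are in RPM, the reads scaled to the same total in each library, with the reads of a miRNA summed. The labels number 3 replicates for each age without saying that each was a separate animal, so p-values measure the spread between these libraries.

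A miRNA in the RISC finds its target mRNAs mainly through its seed, the bases next to its 5′ end, so miRNAs with the same seed can act on overlapping sets of targets. The miR-17-92 cluster, also known as oncomiR-1, is activated by MYC, and together with miR-106b-25 it is known for promoting proliferation and survival and for restraining targets such as the cell cycle inhibitor Cdkn1a and the pro-apoptotic Bim. In the brain these miRNAs are best known from neural progenitors, and the host gene of miR-106b-25 encodes a subunit of the MCM helicase that opens DNA for replication.

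The mature sequences show how the members fall into families. They are given below from RefSeq (GRCm38.p6), which held all 10, with bases 2 to 8 in capitals. The first family has the seed of miR-17-5p and spans both clusters:
miR-17-5p: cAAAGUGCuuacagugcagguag
miR-20a-5p: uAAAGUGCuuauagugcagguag
miR-93-5p: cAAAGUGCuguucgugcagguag
miR-106b-5p: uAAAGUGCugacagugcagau
miR-18a-5p is close to this family, but 1 of its 6 differences from miR-17-5p, A4G counted from the 5′ end, lies in the seed:
miR-18a-5p: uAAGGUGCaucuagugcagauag
The miR-19 family belongs to Mir17hg alone among the members, and its sequences differ at 1 base, U11C from miR-19a-3p to miR-19b-3p:
miR-19a-3p: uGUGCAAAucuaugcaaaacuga
miR-19b-3p: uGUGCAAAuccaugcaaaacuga
The miR-92 family again spans both clusters:
miR-92a-3p: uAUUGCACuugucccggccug
miR-25-3p: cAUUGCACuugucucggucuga
The remaining member is the other arm of the miR-17 hairpin, with a seed of its own:
miR-17-3p: aCUGCAGUgagggcacuuguag

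On GRCm38 the hairpins Mir17, Mir18, Mir19a, Mir20a, Mir19b-1 and Mir92-1 lie on the plus strand of chromosome 14, from 115043671 to 115044506, in an exon of the long intergenic noncoding RNA Mir17hg (115042879 to 115046727). Mir25, Mir93 and Mir106b lie on the minus strand of chromosome 5, from 138165321 to 138165818, within the protein-coding gene Mcm7 (138164583 to 138172422). They are intronic to its coding transcripts, and Mir25 and Mir93 overlap an exon of a retained-intron transcript. In the second annotation column of the data, all 119 read sequences of miR-93-5p were classed as mRNA, under 1 retained-intron transcript of Mcm7, and the reads of the other members as miRNA. miR-19b-3p and miR-92a-3p are also made from Mir19b-2 and Mir92-2 on chromosome X, on the minus strand from 52741838 to 52742066, where the annotation names no other gene. The locus of origin of these 2 miRNAs cannot be told from their reads.

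Libraries held 19272046 to 25080484 reads, recovered from the steps of the RPM values, and 3 reads were worth 0.120 to 0.156 RPM. The neuronal miR-124-3p was at 92539 to 134320 RPM, miR-128-3p at 29260 to 52555 RPM and the oligodendrocyte miR-219a-2-3p at 702 to 963 RPM, so miRNAs of neurons and of oligodendrocytes were present in every library, as were those of blood and vessels. Tests ran over the 474 miRNAs that averaged 10 RPM or more. In limma, 23 of these passed an adjusted p of 0.05, with 21 of the 23 lower in the old libraries. Before adjustment 85 passed, 21 of them higher, and with median-of-ratios scaling 87 passed, 43 of them higher.

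The members together made up 0.414% ± 0.082 (SD, n = 3) of all reads at 2M and 0.347% ± 0.019 at 18M. The ages overlapped, with 2M replicate 2 at 0.337% and 18M replicate 2 at 0.366%. None was among the 100 most abundant miRNAs. The highest was miR-19b-3p, which ranked 119, and the lowest miR-17-3p, which ranked 390. All 10 passed the filter of 10 RPM. With limma, 0 of 10 members had an adjusted p under 0.05 (4.85% of all tested miRNAs), while 4 of 10 had an unadjusted p under 0.05 with lower values at 18M and 0 with higher values (13.5% and 4.43% of all). These were miR-17-3p, miR-18a-5p, miR-19a-3p and miR-19b-3p, all from Mir17hg. On recovered reads, edgeR called 0 of 10 members after adjustment and 4 lower before it (14 and 50 of all 474). DESeq2 called 3 lower after adjustment (6.54% of all), which were miR-17-3p, miR-18a-5p and miR-19b-3p. In 6 of 10 members the 18M libraries lay below all 2M libraries (19.2% of all miRNAs). The log2 fold change from 2M to 18M was below 0 for 9 of 10 members (62.0% of all), with a median of -0.40 over the members and of -0.07 over all miRNAs tested. Without 2M replicate 3, 8 of 10 were below 0 and the median over the members was -0.22.

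**Figure D1:**
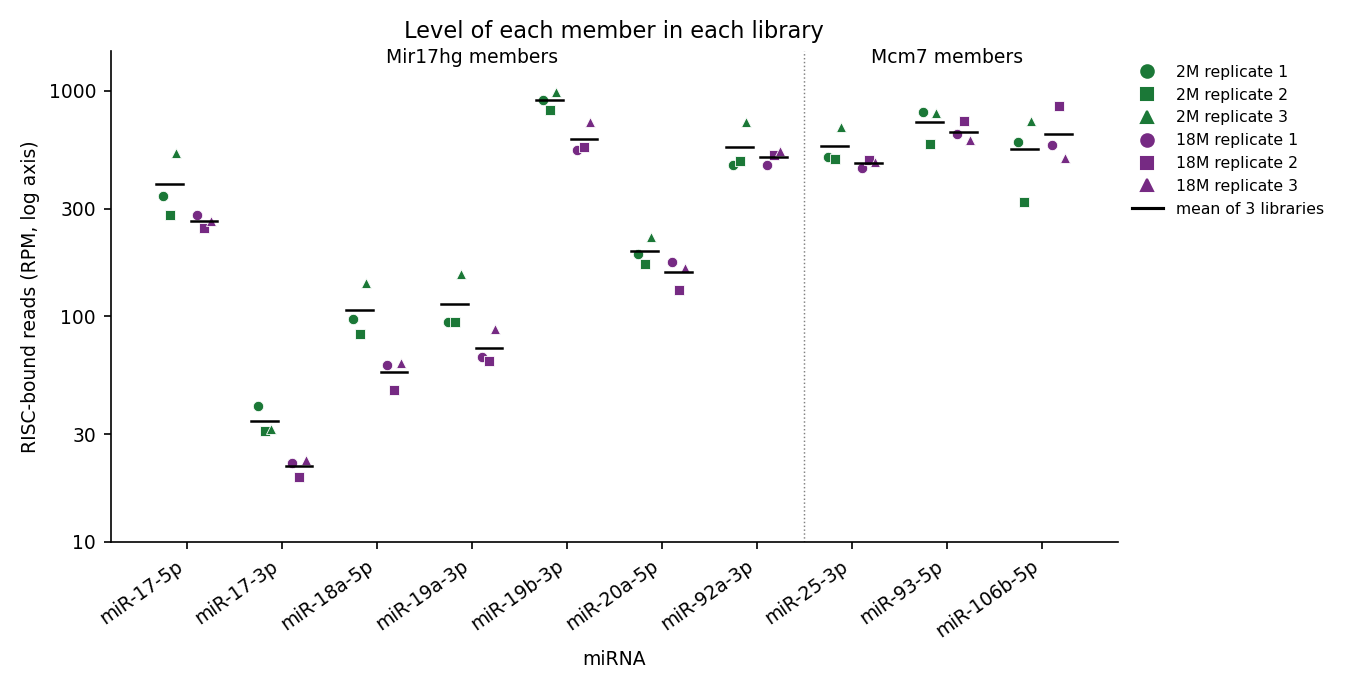
RPM (log axis) of each of the 10 members in each library, with 2M in green and 18M in purple, a marker shape for each replicate and a black line at the mean of 3 libraries. For miR-17-3p, miR-18a-5p, miR-19a-3p and miR-19b-3p all 18M points lie under all 2M points, while for miR-93-5p and miR-106b-5p the ages are mixed.

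The summed miR-17 seed family overlapped between the ages, at 1351 to 2280 RPM at 2M and at 1536 to 1965 RPM at 18M. miR-17-5p, the founding member, was at 341, 282 and 531 RPM in 2M replicates 1, 2 and 3 and at 281, 246 and 265 RPM in 18M replicates 1, 2 and 3. The 18M libraries were all lower, but the gap between the ages was small beside the distance of 2M replicate 3 from the other 2M libraries. Its log2 fold change was -0.49 (SE 0.24, limma adjusted p = 0.347), and -0.24 without 2M replicate 3. miR-20a-5p, its close relative in the same transcript, was at 189, 171 and 224 RPM at 2M and at 174, 131 and 164 RPM at 18M. Here the ages overlapped through 18M replicate 1, and the log2 fold change was -0.31 (SE 0.16, limma adjusted p = 0.368), or -0.19 without 18M replicate 2.

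The Mcm7 members of that family were more abundant and showed no shift past the spread between libraries. miR-93-5p was at 799.9, 579 and 793 RPM at 2M and at 639.9, 731 and 602 RPM at 18M, with a log2 fold change of -0.13 (SE 0.17, limma adjusted p = 0.737). Its lowest library was a young one, 2M replicate 2, without which the log2 fold change was -0.28. Without another single library it lay between -0.21 and -0.05, the latter without 2M replicate 1 or 3. miR-106b-5p was the only member with a log2 fold change above 0. It was at 593, 319.5 and 733 RPM at 2M and at 573, 857 and 504 RPM at 18M, with a log2 fold change of 0.28 (SE 0.35, limma adjusted p = 0.718). Its lowest and highest values came from replicate 2 of each age. Without 2M replicate 2 the log2 fold change was -0.07, and without 18M replicate 2 it was 0.05.

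miR-18a-5p, whose seed differs from that of miR-17-5p by A4G, had the lowest log2 fold change of the members. It was at 97.0, 83.7 and 140.3 RPM at 2M and at 61.1, 47.2 and 61.8 RPM at 18M. All old libraries lay below all young ones, with a ratio of the means of 0.530. The log2 fold change was -0.88 (SE 0.22), with an unadjusted p of 0.0053 and an adjusted p of 0.0868 in limma, and an adjusted p of 0.0110 in DESeq2.

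The miR-19 family was lower in every old library than in any young one. miR-19b-3p, the most abundant member, was at 905, 823 and 985 RPM at 2M and at 542, 561 and 729 RPM at 18M. The highest 18M library was still below the lowest 2M library. Its log2 fold change was -0.57 (SE 0.16), with an unadjusted p of 0.0095 and an adjusted p of 0.115 in limma, and an adjusted p of 0.0443 in DESeq2. miR-19a-3p was at 93.9, 93.8 and 154 RPM at 2M and at 66.3, 63.3 and 87.5 RPM at 18M. The gap between 18M replicate 3 and the lower 2M libraries was small, and the log2 fold change of -0.62 (SE 0.23) had an unadjusted p of 0.0339 and an adjusted p of 0.229 in limma. Its unadjusted p passed 0.05 no more without 2M replicate 3 (log2 fold change -0.39), 18M replicate 1 or 18M replicate 2, whereas miR-17-3p, miR-18a-5p and miR-19b-3p stayed under 0.05 without any single library.

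The summed miR-92 family members overlapped between the ages, with a ratio of the means of 0.874. miR-92a-3p, known for its part in blood vessels, was at 468, 489.6 and 723 RPM at 2M and at 467, 519 and 538 RPM at 18M. The ages overlapped, and its log2 fold change was -0.12 (SE 0.19, limma adjusted p = 0.789) and 0.08 without 2M replicate 3. miR-25-3p, its relative from Mcm7, was at 507, 499 and 689.8 RPM at 2M and at 455, 490.2 and 484 RPM at 18M. All 18M libraries were lower, though 18M replicate 2 lay close under 2M replicate 2, and the log2 fold change was -0.23 (SE 0.16, limma adjusted p = 0.462) and -0.08 without 2M replicate 3.

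miR-17-3p, the less abundant arm of the miR-17 hairpin, had the lowest p of the members. It was at 39.9, 31.1 and 31.7 RPM at 2M and at 22.5, 19.3 and 23.0 RPM at 18M. The libraries of an age lay close together and the ages did not overlap. Its log2 fold change was -0.64 (SE 0.14), with an unadjusted p of 0.0037 and an adjusted p of 0.0643 in limma, and an adjusted p of 0.0131 in DESeq2.

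**Figure D2:**
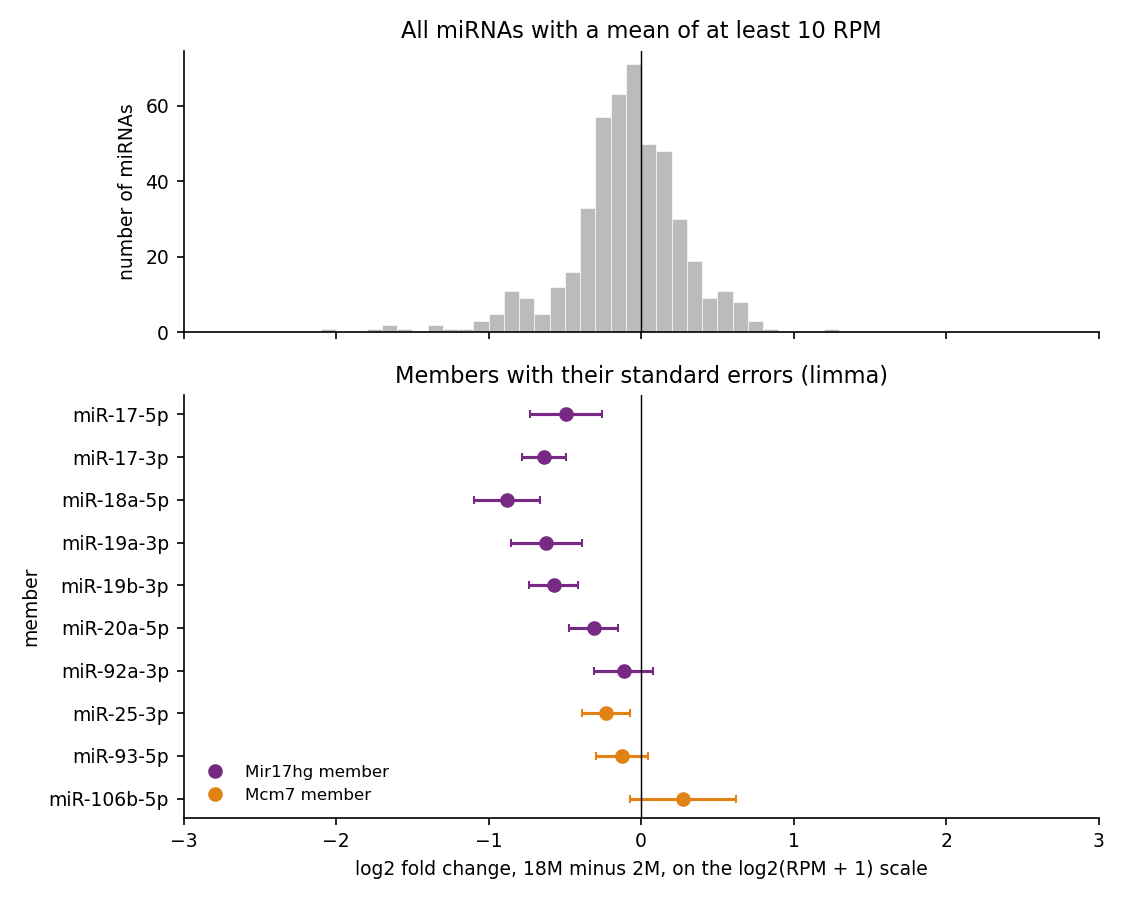
Log2 fold changes from 2M to 18M on the log2(RPM + 1) scale: above, the number of miRNAs per 0.1 bin over the 474 tested, and below, each member with its standard error from limma, Mir17hg members in purple and Mcm7 members in orange. All 7 Mir17hg members lie left of 0, from -0.88 to -0.12, and the Mcm7 members lie between -0.23 and 0.28.

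The members of each transcript were then added up, which gives sums over chosen miRNAs and carries no test. The 7 Mir17hg members summed to 2133, 1974 and 2788 RPM at 2M and to 1614, 1586 and 1869 RPM at 18M. The ages did not overlap, and the mean went from 2298 ± 431 to 1689.5 ± 156 RPM (SD, n = 3), a ratio of 0.735. The 3 Mcm7 members summed to 1900.4, 1398 and 2215 RPM at 2M and to 1667, 2078 and 1591 RPM at 18M. Here the ages overlapped, and the means were 1838 ± 412 and 1779 ± 262 RPM, a ratio of 0.968, whose direction turned with median-of-ratios scaling. Mcm7 members over Mir17hg members gave 0.891, 0.708 and 0.795 at 2M and 1.03, 1.31 and 0.851 at 18M. The ratio thus overlapped through 2M replicate 1 and 18M replicate 3. Whether fewer cells of a type or less RNA per cell lies behind a level cannot be told apart in bulk tissue.

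**Figure D3:**
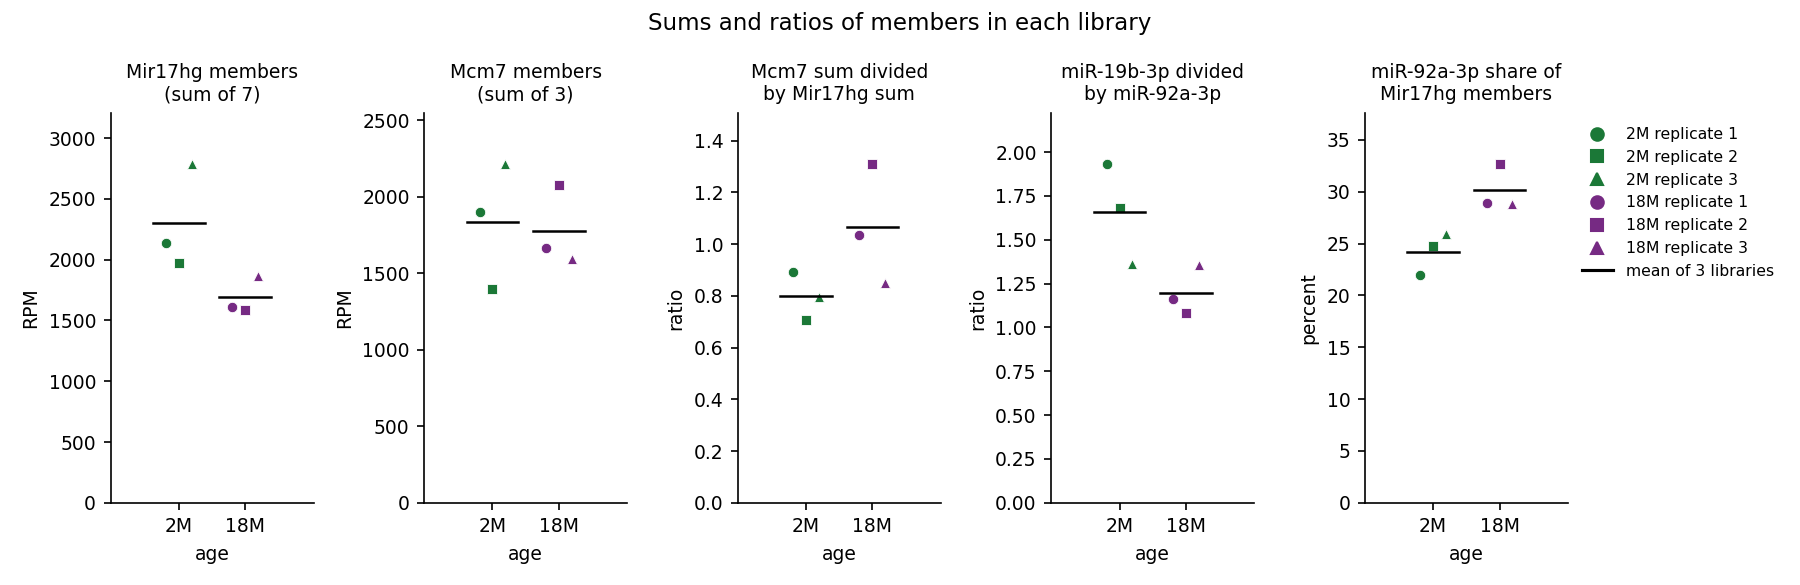
Summed RPM of the Mir17hg and of the Mcm7 members, the ratio of these sums, the ratio of miR-19b-3p to miR-92a-3p and the percent of Mir17hg member reads that miR-92a-3p makes up, per library with the mean as a black line and all axes from 0. The ages are apart for the Mir17hg sum, for the miR-19b-3p to miR-92a-3p ratio and for the miR-92a-3p share, and overlap in the others.

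Shares within a cluster are given as values, with no test. Within Mir17hg, miR-92a-3p gave 21.9%, 24.8% and 25.9% of the member reads at 2M and 28.9%, 32.7% and 28.8% at 18M, higher in every old library, while its own mean was 560.2 RPM at 2M and 508 RPM at 18M. The share of miR-18a-5p was 4.55%, 4.24% and 5.03% at 2M and 3.79%, 2.98% and 3.31% at 18M, lower in every old library. The shares of the other 5 members overlapped. miR-19b-3p over miR-92a-3p was 1.93, 1.68 and 1.36 at 2M and 1.16, 1.08 and 1.35 at 18M. The 18M values were all lower, but 2M replicate 3 and 18M replicate 3 almost met. Both of these miRNAs can also come from chromosome X. Within Mcm7, miR-106b-5p over miR-25-3p overlapped between the ages, at 0.640 to 1.17 and at 1.04 to 1.75.

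Since the study sorts R-sRNAs by the 6mer seed, read positions 2 to 7, all reads with the seed of a member were also summed. The viability attached to a seed is the survival, in percent, of 3 mouse cell lines given an siRNA that carries it, and low values mark a toxic seed. All 5 seeds were on the nontoxic side, with viabilities of 84.4 (AAAGUG, miR-17 family), 86.7 (CUGCAG, miR-17-3p), 73.6 (AAGGUG, miR-18a-5p), 75.8 (GUGCAA, miR-19 family) and 86.2 (AUUGCA, miR-92 family). Reads with a viability of at least 70 made up 98.6% of member reads at each age. They were 26.5% ± 0.50 of all reads at 2M and 24.9% ± 0.94 at 18M (SD, n = 3), a difference of -1.58 percentage points, of which member reads gave -0.0657. The part from member reads overlapped between the ages.

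With limma, 0 of 5 seeds had an adjusted p under 0.05 (0.905% of the 1105 seeds tested), and 2 of 5 were lower at an unadjusted p under 0.05 (6.7% of all). edgeR called 0 after adjustment and 2 lower before it (54 of all 1105 lower), and DESeq2 called 1 after adjustment, AAGGUG (1.99% of all lower). AAGGUG, to which miR-18a-5p gave 94.2% of the reads, was at 101, 87.7 and 143 RPM at 2M and at 65.4, 51.1 and 66.3 RPM at 18M. Its log2 fold change was -0.83 (SE 0.21, limma adjusted p = 0.162). GUGCAA, with 96.4% of its reads from members, was at 1001, 927 and 1136 RPM at 2M and at 621, 631 and 827 RPM at 18M. Both seeds were lower in every old library, and GUGCAA had a log2 fold change of -0.57 (SE 0.16, limma adjusted p = 0.230).

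The other 3 seeds overlapped between the ages. AAAGUG, with 98.6% of its reads from members, had a mean of 1831 RPM at 2M and 1701 RPM at 18M, and its log2 fold change of -0.08 (SE 0.21, limma adjusted p = 0.888) was 0.01 with median-of-ratios scaling. The AUUGCA pool of the brain was filled mostly by other miRNAs: members gave 47.1% of it, miR-92b-3p 37.3% and miR-32-5p 14.2%. Its means were 2218 and 2115 RPM, with a log2 fold change of -0.07 (SE 0.13, limma adjusted p = 0.850). CUGCAG was shared likewise, with 45.2% of its reads from miR-17-3p and 43.1% from miR-666-3p, and had a log2 fold change of -0.20 (SE 0.13, limma adjusted p = 0.533). These same-seed miRNAs had log2 fold changes of 0.24 for miR-92b-3p, -0.54 for miR-32-5p and -0.24 for miR-666-3p, with limma adjusted p from 0.374 to 0.618.

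Each miRNA is a mixture of read sequences that differ at their ends (isomiRs). Of the member read sequences, 46 had a mean of at least 10 RPM. With limma, 0 of 46 had an adjusted p under 0.05 (0.366% of the 3281 sequences tested), and 7 were lower and 0 higher at an unadjusted p under 0.05 (4.63% and 8.41% of all). edgeR called 0 after adjustment and 7 lower before it (179 of all 3281 lower), and DESeq2 called 5 lower after adjustment (1.83% of all). The main read of miR-18a-5p, of 21 nt, was lower in every old library, with a log2 fold change of -0.73 (SE 0.17, limma adjusted p = 0.175). For miR-17-5p, reads of different length had different values. The main read, which equals the mature form, and the reads shorter by 1 and 2 bases are shown with T for U and bases 2 to 8 in capitals:
miR-17-5p, 23 nt: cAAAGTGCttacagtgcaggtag
miR-17-5p, 22 nt: cAAAGTGCttacagtgcaggta
miR-17-5p, 21 nt: cAAAGTGCttacagtgcaggt
The 23 nt read was at 152, 141 and 257 RPM at 2M and at 98.6, 88.0 and 97.9 RPM at 18M, with a log2 fold change of -0.89 (SE 0.25, limma adjusted p = 0.224). It was lower in every old library, while the shorter reads overlapped. The 22 nt read had a log2 fold change of -0.08 (SE 0.24) and the 21 nt read of 0.16 (SE 0.39). A 24 nt read and a 23 nt read ending in A instead of G were also lower in every old library. Their log2 fold changes were -0.84 (SE 0.35) and -0.42 (SE 0.18). The 23 nt read ending in T overlapped, at -0.06 (SE 0.24).

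Its relative miR-20a-5p had the same layout of reads:
miR-20a-5p, 23 nt: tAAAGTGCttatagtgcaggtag
miR-20a-5p, 22 nt: tAAAGTGCttatagtgcaggta
The 23 nt read was at 93.9, 99.4 and 102 RPM at 2M and at 74.8, 49.0 and 64.7 RPM at 18M. These ages were apart, with a log2 fold change of -0.66 (SE 0.19, limma adjusted p = 0.234), against -0.03 (SE 0.24) for the 22 nt read, which overlapped.

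In the miR-19 family the main read ends 1 base before the mature form:
miR-19a-3p, 22 nt: tGTGCAAAtctatgcaaaactg
miR-19a-3p, 23 nt: tGTGCAAAtctatgcaaaactga
miR-19b-3p, 22 nt: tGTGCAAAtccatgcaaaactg
miR-19b-3p, 23 nt: tGTGCAAAtccatgcaaaactga
The 22 nt read of miR-19a-3p was at 51.6, 51.2 and 88.4 RPM at 2M and at 27.2, 31.0 and 32.8 RPM at 18M, with a log2 fold change of -1.004 (SE 0.24, limma adjusted p = 0.175). That of miR-19b-3p was at 402, 418 and 564 RPM at 2M and at 245, 266 and 296 RPM at 18M, with a log2 fold change of -0.76 (SE 0.19, limma adjusted p = 0.175). Both were lower in every old library, while the 23 nt reads had log2 fold changes of -0.28 (SE 0.24) and -0.49 (SE 0.26) and overlapped.

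The share of the main read within its own miRNA does not use the level of the miRNA. For miR-17-5p the main read was 44.5%, 49.9% and 48.3% of the reads at 2M and 35.1%, 35.8% and 36.9% at 18M. For miR-20a-5p it was 49.8%, 58.3% and 45.6% at 2M and 42.9%, 37.4% and 39.5% at 18M. For miR-19a-3p it was 54.9%, 54.5% and 57.5% at 2M and 41.0%, 48.9% and 37.5% at 18M. These 3 members and miR-25-3p, whose share went from 74.4% to 72.3%, were lower in every old library. That makes 4 of 10 lower and 0 higher, against 10.3% and 4.64% of all miRNAs. Each of the 4 had an exact permutation p of 0.1, the smallest that 3 against 3 allows (two-sided; 0.375 after adjustment over 30 tests of 10 members and 3 measures), so the design could not reach 0.05.

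The mean read length was lower without overlap in 3 of 10 members (miR-17-5p, miR-20a-5p and miR-25-3p) and higher in 0 (12.2% and 6.75% of all miRNAs). The largest of these differences was in miR-17-5p, from 22.6 to 22.4 nt. The 5′ ends were steadier: reads with another seed than the main read made up 1.16% to 6.35% of a member, with 0 of 10 lower and 1 of 10 higher without overlap, miR-25-3p (8.44% and 5.49% of all).

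Reads were also set against the RefSeq hairpins, a look added after the values above were seen. Untemplated ends of 1 to 3 T (U in the RNA) were on 9.93%, 9.70% and 8.55% of miR-17-5p reads at 2M and on 12.7%, 13.2% and 11.3% at 18M. On miR-20a-5p they were 6.29%, 5.77% and 8.12% at 2M and 8.57%, 13.4% and 8.72% at 18M. On miR-93-5p they were 4.13%, 3.51% and 5.17% at 2M and 6.23%, 6.89% and 5.42% at 18M. All 3 were higher in every old library, they were the only members to be so, and 0 were lower (7.84% and 6.22% of 370 miRNAs with a placed hairpin). Their mature forms end in the same bases. No test was run on these shares. A share also depends on the other reads of the miRNA. The main reads of miR-17-5p and miR-20a-5p were lower in every old library, and that of miR-93-5p overlapped. What lies behind the higher shares was not tested. In each of the 3 miRNAs, the level of the 23 nt read ending in T overlapped between the ages. Its log2 fold change was -0.06 (SE 0.24) for miR-17-5p, 0.20 (SE 0.31) for miR-20a-5p and 0.49 (SE 0.36) for miR-93-5p. Untemplated A ends were higher without overlap in 1 of 10 members, miR-17-3p, and in 18.1% of the 370 miRNAs.

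**Figure D4:**
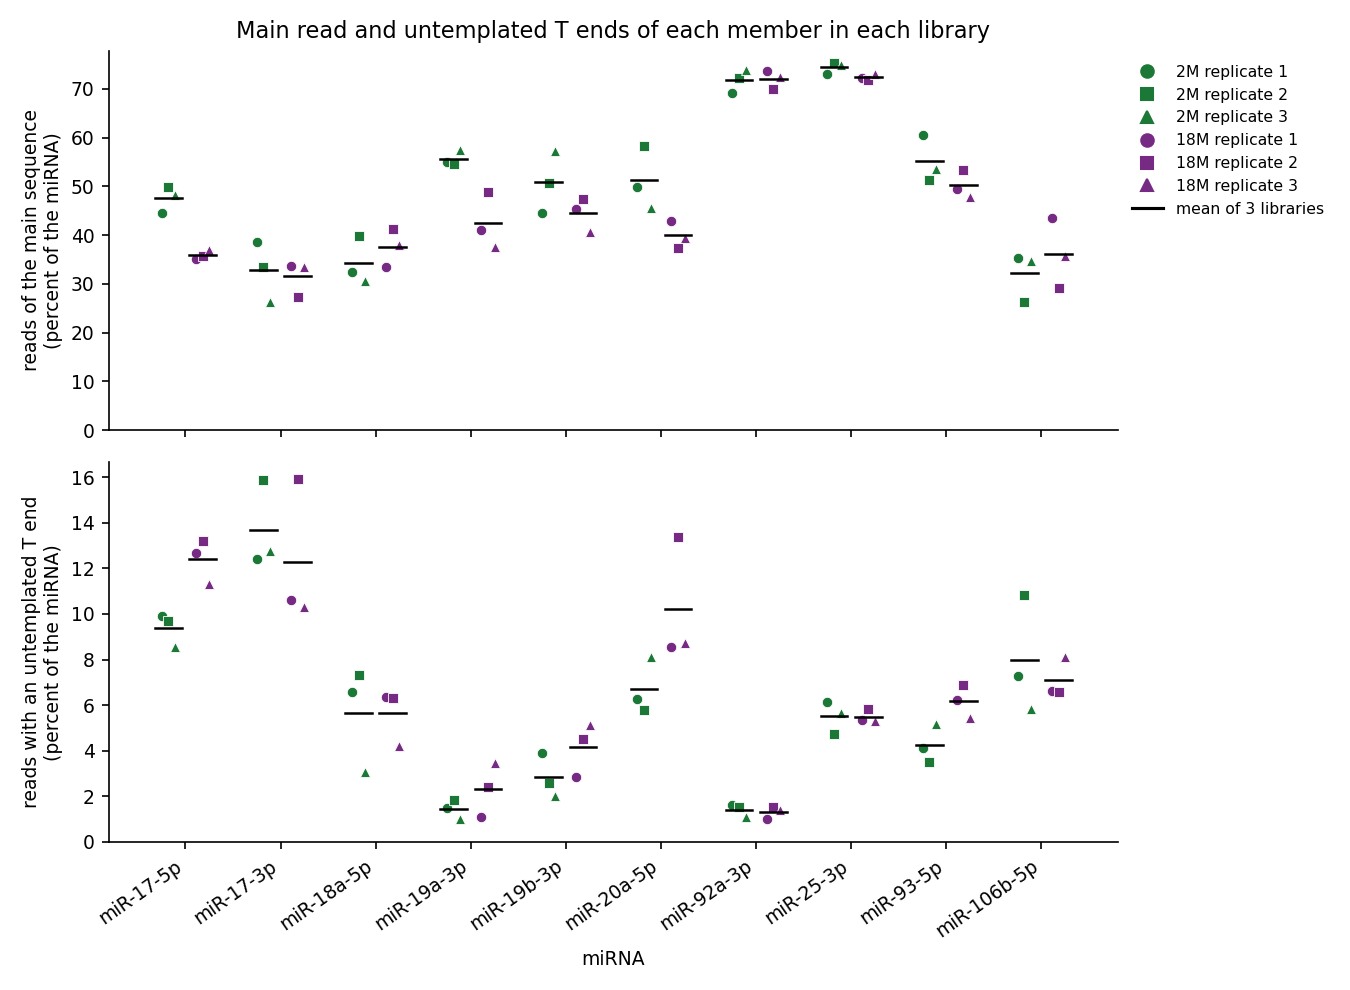
Percent of the reads of each member that have its main sequence (above) and that end in 1 to 3 untemplated T (below), per library, with the mean of 3 libraries as a black line. The main read share is lower at 18M in every library for miR-17-5p, miR-19a-3p, miR-20a-5p and miR-25-3p, and the T share is higher in every library for miR-17-5p, miR-20a-5p and miR-93-5p.

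Both arms of the miR-17 hairpin are members, so their ratio could be followed. The hairpin from RefSeq is shown with the 5p and the 3p arm in capitals:
Mir17: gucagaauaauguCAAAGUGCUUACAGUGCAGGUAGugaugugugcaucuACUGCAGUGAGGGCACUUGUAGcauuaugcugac
The log2 ratio of miR-17-3p to miR-17-5p was -3.10, -3.18 and -4.07 at 2M and -3.64, -3.67 and -3.53 at 18M. The 18M libraries lay inside the range of the 2M libraries, which 2M replicate 3 set at its low end. The difference of the means, -0.16, had an exact two-sided permutation p of 0.6, and it was 0.01 without 2M replicate 1. Without 2M replicate 3 the other 2M libraries, at -3.10 and -3.18, lay above all 18M libraries.

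Of the other arms of the hairpins, most were rare. All 8 had reads, with means of 0.361 to 81.3 RPM, but only miR-93-3p and miR-106b-3p passed 10 RPM. Their log2 fold changes were -0.19 (SE 0.15) and -0.22 (SE 0.23), with 0 of 2 called by limma before or after adjustment. Of the untested arms, miR-20a-3p was at 5.10, 6.18 and 6.05 RPM at 2M and at 4.30, 2.56 and 3.06 RPM at 18M. miR-18a-3p, with means of 3.03 and 1.12 RPM, and miR-19b-1-5p, with means of 2.08 and 1.13 RPM, were likewise lower in every old library. The other 3 untested arms overlapped between the ages. The share of all miRNAs lower in every old library, 19.2%, covers only those averaging 10 RPM or more. These rarer arms thus have no such share to be set against. miR-19b-1-5p is made only from the hairpin on chromosome 14, and the arm of the chromosome X hairpin, miR-19b-2-5p, had no reads in the data. Of the 10 arms listed for the paralogous cluster on chromosome X, 6 had reads, and none had a mean above 2.16 RPM.

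Markers of cell types that the tissue holds moved as follows. The 4 erythrocyte miRNAs summed to 2550 to 3689 RPM at 2M and to 1307 to 2892 RPM at 18M, and miR-451a, their defining member, had a log2 fold change of -0.60 (SE 0.38, limma adjusted p = 0.442). This sum was highest in 2M replicate 3, the highest library for 7 of 10 members. It was nearly as high in 2M replicate 2, the highest library for 0 members and the lowest for 2. The erythrocyte sum was lowest in 18M replicate 2, the lowest library for 5 of 10 members. The sums of immune and of vessel miRNAs, given next, were also lowest in 18M replicate 2, but highest in 2M replicate 2. The neuronal sum was highest in 18M replicate 2. miR-451a was highest in 2M replicate 3, at 2942 RPM. The other 3 erythrocyte miRNAs were not highest there, and miR-144-3p, at 556 RPM, was at its lowest among the 2M libraries. The 6 miRNAs of microglia and immune cells summed to 3776 to 4111 RPM at 2M and to 2834 to 3402 RPM at 18M, and of 5 tested 1 was lower at an unadjusted p under 0.05 (miR-150-5p). That miRNA held most of the sum, with means of 3023 RPM at 2M and 2294 RPM at 18M. The defining miR-142a-3p overlapped between the ages, with means of 385 and 333 RPM (limma adjusted p = 0.679). miR-223-3p, miR-146a-5p and miR-155-5p had higher means at 18M, with overlap. The 4 vessel miRNAs summed to 11390 to 17001 RPM and to 10104 to 13607 RPM, with 1 lower at an unadjusted p under 0.05 (miR-145a-5p). All 4 had log2 fold changes below 0 (62.0% of all), and miR-143-3p and miR-145a-5p were lower in every old library (19.2% of all). The defining miR-126a-3p overlapped, with means of 6092 and 5234 RPM (limma adjusted p = 0.835). Neuronal miRNAs summed to 178993 to 201581 RPM and to 159273 to 201612 RPM, and those of oligodendrocytes to 6659 to 13932 RPM and to 7556 to 11213 RPM. No defining marker of these lists was at 0 in any library, and the part of these cell types in the members' levels was not tested.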

How the data were processed

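R-sRNAs of 3 2M and 3 18M libraries were analysed. The authors trimmed reads (Trim Galore, per the submitters' processing notes, version not given), collapsed identical reads and matched them to small RNAs; the deposited values are RPM per read sequence, and the viability of the 6mer seed is a deposited score. Rare reads had been removed, so the rarest forms of a miRNA may be missing. All RPM values (100%) were whole multiples of 1 read within 0.05 steps, so whole reads were recovered. The SDs and SEs given measure the spread between libraries. No libraries were duplicates.

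RPM were summed per miRNA label, seed and sequence. The main test was limma 3.58.1 with trend (R 4.3.3) on log2(RPM + 1), which understates low features, over features averaging 10 RPM or more, with Benjamini-Hochberg adjustment over all of them; edgeR 4.0.16 and DESeq2 1.42.0 were run on recovered reads. The fit was run on simulated data with changes larger than those of the members, so it does not show how changes of their size are called. A read with several labels counted under each (308 sequences, none of a member). Sums and exact tests used pandas 2.3.3 and scipy 1.17.1 in Python 3.11.15, and figures matplotlib 3.10.9. All members are named, other arms and same-seed miRNAs (at least 10% of a seed) by rule. Members and lists were chosen with earlier results of these data known. Loci are from GENCODE M21.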

Additional observations from a re-analysis of the deposited data

How the results depend on the processing

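The count of called members (adjusted p under 0.05) was 0 in every alternative except DESeq2, which gave 3 of 10 miRNAs, 1 of 5 seeds and 5 of 46 sequences; leaving out each library gave 0 to 0 in all 3. Before adjustment, lower sequences went from 7 to 11 without 2M replicate 2 (128 of all 3286), and to 20 of 117 from a mean of 1 RPM (697 of all 16220). The replicate block gave 0 called members; replicate numbers were not paired (same-number correlations -0.17, -0.22 and -0.10), and the block took all called miRNAs from 23 to 1. These were 46 with DESeq2, 15 with single-label reads or without the trend, 14 with median-of-ratios scaling or edgeR, 2 from a mean of 100 RPM and 0 to 15 leaving out a library; DESeq2 took all called seeds from 10 to 50 and sequences from 12 to 151. Median-of-ratios scaling turned the Mcm7 sum from -0.05 to 0.064 (log2), the AAAGUG member sum to 0.0061 and the seeds AAAGUG and AUUGCA to 0.0082 and 0.018; edgeR gave AUUGCA 4.04e-04. Leaving out a library moved log2 values across 0 for miR-92a-3p (-0.23 to 0.082), miR-106b-5p (-0.070 to 0.53), the seeds AAAGUG (-0.29 to 0.083) and AUUGCA (-0.11 to 0.0088), the sums of Mcm7 (-0.21 to 0.11), of AAAGUG members (-0.29 to 0.074) and of AUUGCA members (-0.29 to 0.0031), and the arm ratio (-0.47 to 0.010; -0.16 with the block). Read-end measures without overlap numbered 8 of 30, and 8 to 13 leaving out a library, the most without 2M replicate 2. Lower members before adjustment, 4 in the main fit, numbered 3 to 5 leaving out a library. The 5 came without 2M replicate 2 (62 of all 471 lower), where miR-17-5p had a limma unadjusted p of 0.0201. From a mean of 100 RPM 1 of 7 was lower (24 of all 276). The other results kept their direction and side of the adjusted threshold. Causes were not tested. At the depth of these libraries 6 of the other arms had means under 5 RPM and were not tested.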
